A study of Mus musculus with 9 samples.

Results

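Caveolae are flask-shaped pits of the plasma membrane, and adipocytes and endothelial cells carry them in large numbers. Caveolins are inserted into the inner leaflet of the membrane, cavins form a coat around the bulb, and the ATPase EHD2 and the membrane-bending protein PACSIN2 act at the neck. In adipocytes, caveolae take part in the storage of lipid and flatten when the membrane is stretched, and inherited loss of CAV1 or CAVIN1 causes generalized lipodystrophy. The genes described here are the 7 members of this set whose gene name is Cav1, Cav2, Cavin1, Cavin2, Cavin3, Ehd2 or Pacsin2, out of 56748 genes in the count table. They were chosen by name, and 7 of 7 passed the filter on low counts that left 18510 genes to test.

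The libraries came from epididymal adipose tissue of male wild-type C57BL/6J mice that were 8 weeks old when the high-fat diet (HFD) began. The study asked what happens in adipose tissue during weight loss in diet-induced obesity. Mice labelled pre weight loss (Pre) had received HFD for 8 weeks, and the mice of the other phases then received standard diet (SD) for 1 week (WL1) or 2 weeks (WL2), with n = 3 libraries for each phase. All 9 libraries were bulk RNA-seq of the whole tissue, so fewer cells of a type and less RNA per cell cannot be told apart. WL1 and WL2 mice were also older than Pre mice, and no mice kept on HFD for the same time are among these libraries, so age and the change of diet cannot be told apart. The labels do not say whether each library came from a single mouse, and the p-values measure the spread between these libraries.

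Libraries held 16434450 to 22729072 counted reads. The least counted of the caveola genes, Pacsin2, had 1591 to 2501 reads a library. All 10 adipocyte markers were detected in every library. Of the 6 skeletal muscle markers, 1, Myh4, had 0 reads in all 9, whereas Acta1 had 97 to 952 reads a library. Reads from mitochondrial genes made up 3.15% to 3.57% of each Pre library, 1.86% to 2.03% of each WL1 library and 2.28% to 2.88% of each WL2 library.

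In mouse GRCm38, as annotated by GENCODE M21, Cav2 and Cav1 are neighbours on chromosome 6 and are read from the same strand. Cav2 (ENSMUSG00000000058) spans chr6:17281185-17289115 and Cav1 (ENSMUSG00000007655) spans chr6:17306335-17341452, with 17219 bases between them. Cavin1 (ENSMUSG00000004044) is at chr11:100956733-100970887 on the minus strand, Cavin2 (ENSMUSG00000045954) at chr1:51289126-51302960 on the plus strand and Cavin3 (ENSMUSG00000037060) at chr7:105480083-105482300 on the minus strand. Ehd2 (ENSMUSG00000074364) is at chr7:15946958-15967567 and Pacsin2 (ENSMUSG00000016664) at chr15:83375607-83464606, both on the minus strand. An exon of Cavin3 overlaps Gm45667 on the opposite strand, which had 3 to 28 reads a library, and no source used here states whether the counting used strand. An intron of Pacsin2 holds the processed pseudogene Gm5417 on the same strand, with 90 to 186 reads a library.

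The 250 bases before the start of 3 of these genes are shown because the neighbours Cav1 and Cav2 varied together over the 9 libraries while Cavin2 did not follow them. The choice was made after the values were seen, and varying together was not particular to neighbours. Cav2 had a Pearson correlation of 0.963 with Cavin1, on another chromosome, beside 0.944 with Cav1. They were taken from RefSeq promoters of GRCm38.p6, which hold 6 of the 7 genes, and are written 5′ to 3′ on the strand of the gene. Capitals mark the GC box GGGCGG, the CCAAT box CCAAT and the TATA box TATAAA, searched on both strands.
Cav1, chr6:17306085-17306334, plus strand: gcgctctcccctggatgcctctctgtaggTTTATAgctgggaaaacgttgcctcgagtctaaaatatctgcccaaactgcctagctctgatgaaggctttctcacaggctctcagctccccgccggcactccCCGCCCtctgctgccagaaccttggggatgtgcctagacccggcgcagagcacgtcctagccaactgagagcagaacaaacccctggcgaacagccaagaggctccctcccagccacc
Cav2, chr6:17280935-17281184, plus strand: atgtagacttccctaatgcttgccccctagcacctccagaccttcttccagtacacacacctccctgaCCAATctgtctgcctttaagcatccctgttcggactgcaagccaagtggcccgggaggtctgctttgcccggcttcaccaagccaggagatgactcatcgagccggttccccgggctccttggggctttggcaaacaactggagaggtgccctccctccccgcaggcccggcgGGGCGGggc
Cavin2, chr1:51288876-51289125, plus strand: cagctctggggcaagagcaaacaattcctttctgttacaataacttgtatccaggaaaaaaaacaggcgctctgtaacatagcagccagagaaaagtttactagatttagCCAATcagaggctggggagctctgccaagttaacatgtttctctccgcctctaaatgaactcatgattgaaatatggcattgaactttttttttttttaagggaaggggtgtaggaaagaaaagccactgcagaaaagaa

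The Cav1 window shown is the first of 2 in RefSeq and held 1 GC box and 1 TATA box at 59.6% GC. The other, chr6:17307390-17307639, at 60.8% GC, held none of the 3 boxes. The Cav2 window held 1 GC box and 1 CCAAT box at 62.0% GC. The Cavin2 window had a GC content of 40.4%, below the median of 52.4% over all 32851 mouse promoters of this length, and held 1 CCAAT box and no GC box. Over all these promoters, 32.7% held a GC box, 33.8% a CCAAT box and 12.4% a TATA box. Like Cavin2, the genes Pacsin2, Cav1 and Cavin1 were not called lower by edgeR. For Pacsin2, the window chr15:83464607-83464856 held 1 GC box and 2 CCAAT boxes at 62.0% GC. Its other windows, at 46.4% and 50.8% GC, held none of the 3 boxes. The Cavin1 windows, at 67.6% GC, each held 1 GC box and 1 CCAAT box. The window of Ehd2, a gene called lower, held 1 GC box and 1 CCAAT box at 58.0% GC. The matches describe the letters of these windows and were not tied to any measurement of binding. A link between the windows and the levels was not tested.

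Per length of transcript, Cav1 was the most abundant of the 7. Its mean over the 9 libraries was 821 FPKM (reads per kilobase of gene, scaled for library depth by the authors), which ranked 33 among all 56748 genes. Cavin1 had a mean level of 521 FPKM at rank 58, Cavin2 271 FPKM at rank 126 and Ehd2 262 FPKM at rank 133. Cav2 had 187 FPKM, Cavin3 161 FPKM and Pacsin2 20.5 FPKM. Thus 6 of the 7 genes ranked 231 or higher, and Pacsin2, which also serves membrane trafficking outside caveolae, ranked 2337. Together the 7 genes took 0.955% to 0.984% of the counted reads in Pre libraries, 0.609% to 0.799% in WL1 libraries and 0.705% to 0.867% in WL2 libraries.

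The order of the levels differed between the phases. At Pre the levels per length ran from Cav1 through Cavin1 and Ehd2 to Cavin2, Cavin3, Cav2 and Pacsin2. There, Cavin2 (207 to 297 FPKM) overlapped both Cavin3 (241 to 262 FPKM) and Cav2 (227 to 243 FPKM), and Cavin3 and Cav2 overlapped each other. At WL2 the order was Cav1, Cavin1, Cavin2, Ehd2, Cav2, Cavin3 and Pacsin2, and no neighbours overlapped. Cavin2 was then at 279 to 352 FPKM and Cavin3 at 114 to 142 FPKM. The ratio of Cavin2 to Cavin3 in FPKM was 1.13, 0.858 and 1.16 in the Pre libraries, 2.89, 2.16 and 1.93 in the WL1 libraries and 2.45, 2.19 and 2.77 in the WL2 libraries. This pair was picked after the values were seen, and its ratio is given as a description.

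Against Pre, 3 of the 7 genes fell after 1 week of SD, namely Cav2, Cavin3 and Ehd2, and the same 3 genes were lower after 2 weeks. None of the 7 rose. Cavin3 showed the greatest fall of the 7, to 0.410 of its Pre level at WL1 and 0.506 at WL2. Among all genes tested, 4.69% were called lower and 2.6% higher at WL1, and 6.66% were called lower and 3.35% higher at WL2 (edgeR quasi-likelihood test, Benjamini-Hochberg adjusted p under 0.05). Without scaling factors, 3.47% of the genes tested were called lower and 5.42% higher at WL1, and 4.51% and 8.08% at WL2. The median log2 fold change of the 7 genes was −0.50 at WL1 and −0.47 at WL2, beside 0.021 and 0.0084 over all genes tested. The WL1 and WL2 comparisons share the 3 Pre libraries.

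**Figure D1:**
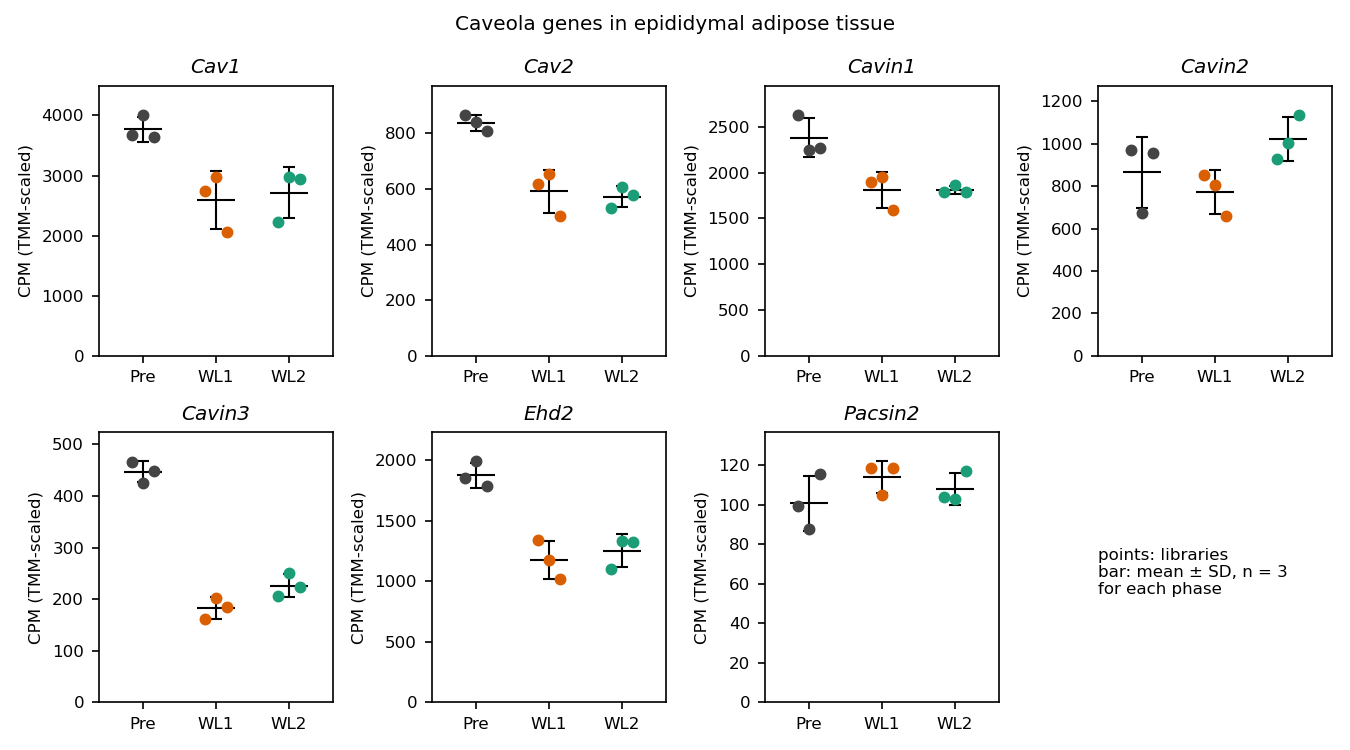
Level of each of the 7 caveola genes by phase, in CPM, the counts scaled to a common library size with TMM factors. Each point is a library and the bars are the mean ± SD (n = 3). The WL1 and WL2 points of Cav1, Cav2, Cavin1, Cavin3 and Ehd2 lie below their Pre points, while those of Cavin2 and Pacsin2 overlap them. The share of all genes tested that separate in this way was not counted.

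Cav1 is the caveolin that most cells need to form caveolae. Its level, in TMM-scaled CPM, was 3673, 4007 and 3632 in the Pre libraries, 2739, 2978 and 2055 in the WL1 libraries and 2219.95, 2980.2 and 2942 in the WL2 libraries. Every WL1 and WL2 library was below every Pre library. The share of all genes tested that separated in this way was not counted, so separation, here and below, is a description. The log2 fold change of Cav1 was −0.54 ± 0.16 (SE; 95% CI −0.90 to −0.18) at WL1, with an adjusted p of 0.0738 by edgeR's quasi-likelihood test, and −0.47 ± 0.16 at WL2, with an adjusted p of 0.0983. Neither passed the threshold over all genes, although DESeq2 called both (adjusted p = 0.0122 and 0.0391).

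Cav2 forms a complex with Cav1 and depends on it to reach the cell surface. Its level was 864, 840.0 and 806 CPM in Pre, 617, 653 and 503 CPM in WL1 and 530.4, 605 and 578 CPM in WL2. The Pre libraries lay above all the others. Cav2 fell, with a log2 fold change of −0.50 ± 0.12 (SE) at WL1 (edgeR adjusted p = 0.0354) and −0.55 ± 0.12 at WL2 (adjusted p = 0.0178). At WL1 the adjusted p of Cav2 was 0.0509 to 0.105 when Pre 1, 2 or 3, WL1 1, 2 or 3, or WL2 2 or 3 was left out, and 0.0357 without WL2 1. At WL2 it was 0.0525 without Pre 1 and 0.0575 to 0.0633 without WL2 1, 2 or 3, and stayed under the threshold without each of the other libraries.

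Cavin1, without which caveolae do not form, had a level of 2629.7, 2243 and 2272 CPM in Pre. The WL1 libraries had 1897, 1947 and 1589 CPM and the WL2 libraries 1786, 1862 and 1786 CPM. All 6 were below the lowest Pre library. The log2 fold change was −0.40 ± 0.12 (SE) at WL1 (edgeR adjusted p = 0.0735) and −0.39 ± 0.12 at WL2 (adjusted p = 0.0642), and passed only with DESeq2 (adjusted p = 0.00514 and 0.00699).

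Cavin2, which binds phosphatidylserine and shapes the caveolar membrane, did not follow this pattern. Its level was 969, 672 and 955 CPM in Pre, 852, 806 and 657 CPM in WL1 and 928, 1005 and 1135 CPM in WL2. Pre overlapped both later phases, and Pre 2 was the lowest Pre library. The log2 fold change was −0.16 ± 0.16 (SE; 95% CI −0.53 to 0.20) at WL1, with an edgeR adjusted p of 0.579, and 0.24 ± 0.16 (95% CI −0.12 to 0.61) at WL2, with an adjusted p of 0.38. The interval at WL2 leaves out a fall of the size seen for Cav2, whereas the interval at WL1 includes the fall of Cav2 there.

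Cavin3, a cavin that joins the coat through Cavin1 and binds protein kinase C delta, had the clearest difference. Its level was 466, 426 and 449 CPM in the Pre libraries. It was 161, 203 and 186 CPM in the WL1 libraries and 206, 249.8 and 223 CPM in the WL2 libraries. The highest later library thus lay far below the lowest Pre library. Cavin3 fell by 1.29 ± 0.12 (SE; 95% CI of the log2 fold change −1.56 to −1.02) on the log2 scale at WL1, with an edgeR adjusted p of 0.000476 that ranked 26 among all genes tested. At WL2 it fell by 0.98 ± 0.12 on the log2 scale (95% CI −1.25 to −0.71, edgeR adjusted p = 0.000793). Cavin3 was called in 19 of 19 alternative analyses of both comparisons, with log2 fold changes from −1.37 to −1.19 at WL1 and from −1.06 to −0.83 at WL2.

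Ehd2, the ATPase that holds caveolae at the cell surface, had levels of 1849, 1988 and 1784 CPM in Pre. The WL1 libraries had 1336, 1171 and 1020.1 CPM and the WL2 libraries 1097, 1335 and 1323 CPM. No later library reached the Pre range. Ehd2 fell, with a log2 fold change of −0.67 ± 0.13 (SE) at WL1 (edgeR adjusted p = 0.0164) and −0.58 ± 0.13 at WL2 (adjusted p = 0.0212). The adjusted p at WL1 was 0.0532 without WL1 2 and 0.0572 without WL1 3. At WL2 it was 0.0527 without Pre 2 and 0.0561 to 0.065 without WL2 1, 2 or 3.

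Pacsin2, an F-BAR protein that curves the membrane at the neck, had 99.1, 87.7 and 115 CPM in Pre, 118, 105 and 119 CPM in WL1 and 104, 103 and 117 CPM in WL2. The 3 phases overlapped. Its log2 fold change was 0.18 ± 0.12 (SE; 95% CI −0.093 to 0.45) at WL1 and 0.10 ± 0.12 (95% CI −0.17 to 0.37) at WL2, with edgeR adjusted p of 0.403 and 0.641.

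**Figure D2:**
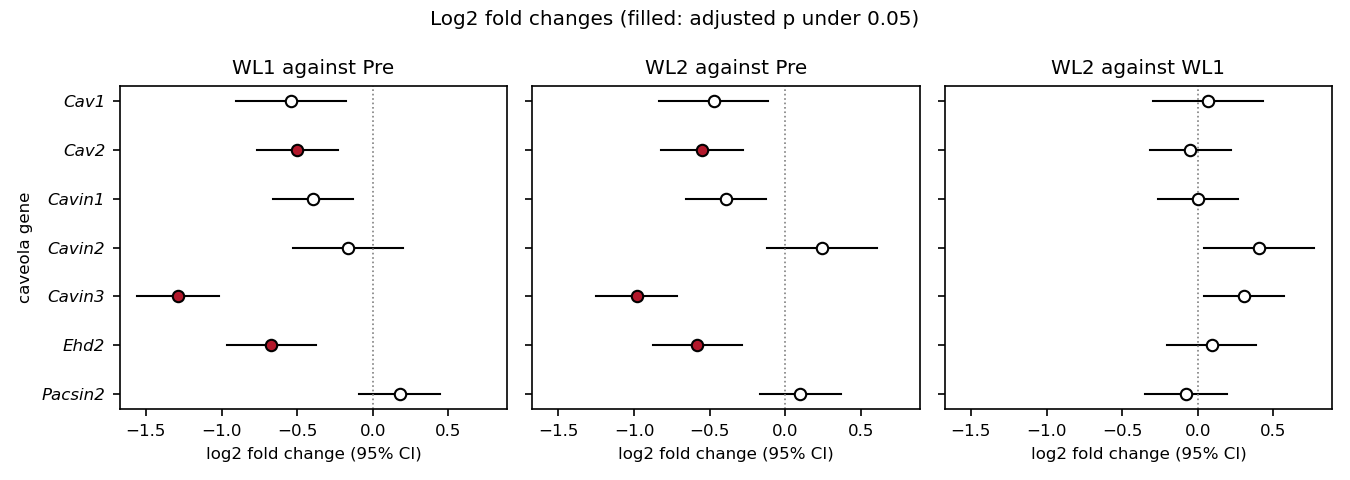
Log2 fold change of each caveola gene in the 3 comparisons of phases, with its 95% CI. Filled points passed an adjusted p of 0.05, which Cav2, Cavin3 and Ehd2 did in both comparisons with Pre and no gene did between WL2 and WL1.

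Between WL2 and WL1, 0 of the 7 genes were called by edgeR's quasi-likelihood test, by DESeq2 or by limma, and 2 of the 7, Cavin2 and Cavin3, had an unadjusted p under 0.05, as did 21.4% of all genes tested. Among all genes tested, 2.37% were called lower and 1.31% higher at WL2 than at WL1, and with upper quartile factors 1.97% and 1.84%. In both Cavin2 and Cavin3 every WL2 library was above every WL1 library. The log2 fold change of Cavin2 was 0.41 ± 0.16 (SE; 95% CI 0.041 to 0.77, edgeR adjusted p = 0.186), and that of Cavin3 was 0.31 ± 0.12 (95% CI 0.041 to 0.57, edgeR adjusted p = 0.172). The other 5 genes had log2 fold changes between −0.078 and 0.091, and their libraries overlapped. A test of any difference among the 3 phases called Cav2 (edgeR adjusted p = 0.0211), Cavin3 (adjusted p = 0.000282) and Ehd2 (adjusted p = 0.0142), 3 of the 7 genes, where 13.1% of all genes tested were called.

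A ratio of 2 genes within a library needs no scaling between libraries, and shows whether the caveola genes changed by equal amounts. The reads per kilobase of each gene were divided by those of Cav1. Each of the 6 ratios was compared among the phases by an exact permutation test over the 280 divisions of the libraries into 3 groups of 3. The statistic was the between-phase sum of squares of the log2 ratio, which has no direction. All 6 ratios share Cav1. The ratio of Cavin2 to Cav1 was 0.297, 0.189 and 0.296 in Pre, 0.351, 0.305 and 0.360 in WL1 and 0.471, 0.380 and 0.435 in WL2. The 3 phases did not overlap. The exact permutation p was 0.00357, the smallest that this design can give, and 0.0214 after Benjamini-Hochberg adjustment over the 6 ratios. The adjusted exact p was 0.0643 without Pre 2, 0.0857 without WL1 1, 0.0536 without WL1 2 or WL1 3, and 0.0643 without WL2 1 or WL2 3.

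The ratio of Cavin3 to Cav1 was 0.263, 0.220 and 0.256 in Pre, 0.122, 0.141 and 0.187 in WL1 and 0.193, 0.174 and 0.157 in WL2. Pre lay above both later phases, which overlapped each other (exact permutation p = 0.0179, adjusted p = 0.0536). The ratio of Pacsin2 to Cav1 was 0.0189 ± 0.0035 (SD, n = 3) at Pre, with 0.0318 ± 0.0080 at WL1 and 0.0283 ± 0.0043 at WL2 (exact permutation p = 0.0393, adjusted p = 0.0786). The ratios of Cav2, Cavin1 and Ehd2 to Cav1 had exact permutation p of 0.461, 0.554 and 0.511. In the order Pre, WL1 and WL2, the mean ratio ± SD (n = 3) was 0.230 ± 0.013, 0.237 ± 0.014 and 0.220 ± 0.024 for Cav2, and 0.334 ± 0.0041, 0.309 ± 0.038 and 0.312 ± 0.018 for Ehd2.

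**Figure D3:**
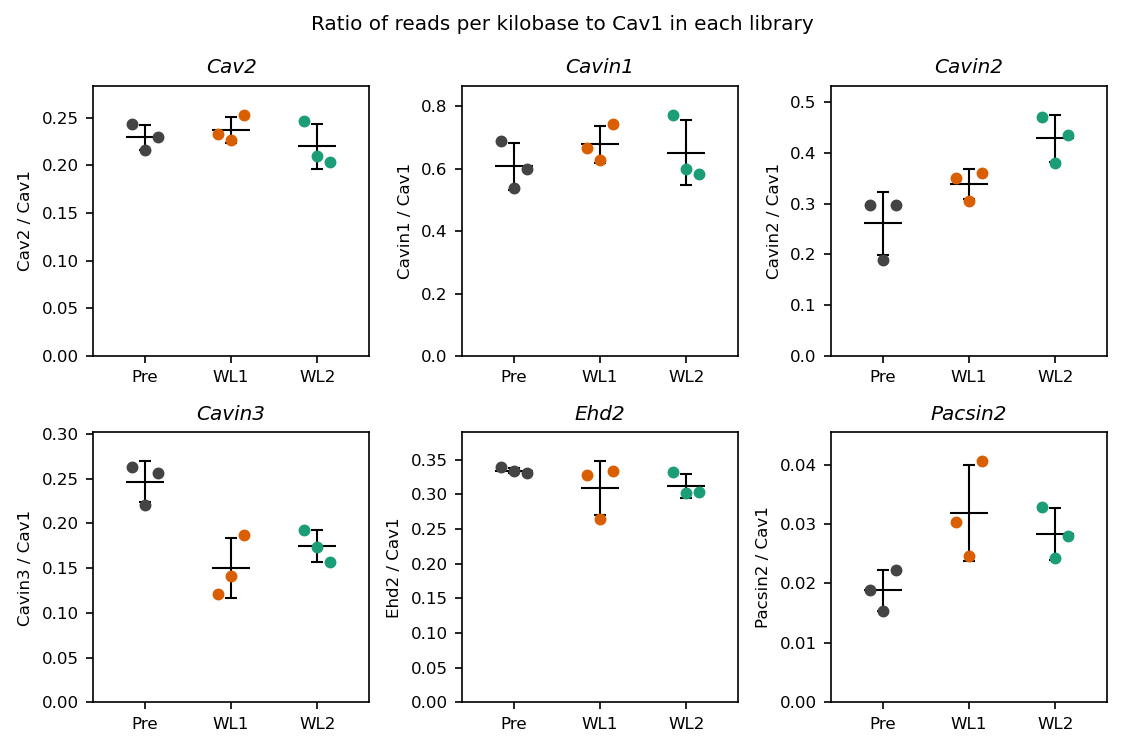
Reads per kilobase of each caveola gene divided by those of Cav1 in the same library, by phase, with points for libraries and bars for the mean ± SD (n = 3). The Cavin2 ratio is 0.261 at Pre, 0.339 at WL1 and 0.429 at WL2 on average, without overlap between phases, while the Cav2, Cavin1 and Ehd2 ratios overlap.

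Over the 9 libraries, which include the differences between phases, the level of Cav1 on the log2 CPM scale had a Pearson correlation of 0.944 with Cav2, 0.941 with Ehd2, 0.869 with Cavin1 and 0.827 with Cavin3. With Cavin2 it was 0.147 and with Pacsin2 −0.54. The protein-coding genes most like the mean of the 7, out of 13049 compared, were Elmo3 (r = 0.988), Trhde (r = 0.986), Ppp2r5d (r = 0.975), Ldah (r = 0.973) and Prr16 (r = 0.972). Those most like Cav1 alone were Tmem182 (r = 0.974), Atrnl1 (r = 0.972), Sspn (r = 0.967), Trhde (r = 0.964) and Trp63 (r = 0.959). These values describe 9 libraries that share their phases and scaling.

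Of 7 close relatives of the caveola genes, 6 could be tested. At WL1, 1 was called higher than at Pre and 0 lower, beside 2.6% and 4.69% of all genes tested. At WL2, 0 were called against Pre and 1 was lower than at WL1, where 2.37% of all genes tested were called lower. Cav3, the muscle caveolin, had 0 to 5 reads a library and was not tested. Pacsin1, the neuronal PACSIN, was close to the limit of detection with 1 to 30 reads a library. Ehd4, an endosomal paralogue of Ehd2, rose at WL1, with levels of 124, 144 and 138 CPM in Pre, 197, 186 and 257 CPM in WL1 and 162, 112 and 113 CPM in WL2. The WL1 libraries of Ehd4 lay above all others. The log2 fold change of Ehd4 was 0.66 ± 0.17 (SE; edgeR adjusted p = 0.0457) at WL1, −0.07 ± 0.17 (adjusted p = 0.839) at WL2 and −0.72 ± 0.17 (adjusted p = 0.0477) from WL1 to WL2. Its call at WL1 held in 7 of 19 alternatives and was lost in 8 of the 9 fits that left out a library, with an adjusted p of 0.144 without WL1 3.

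Among 11 partners of caveolae or residents of caveolae and neighbouring membrane domains, 0 were called at WL1 by edgeR, with 4 at an unadjusted p under 0.05, beside 24.3% of all genes tested. At WL2, 2 of 11 were lower than at Pre and 0 higher, beside 6.66% and 3.35% of all genes tested. Nos3, the endothelial nitric oxide synthase that binds Cav1, had 95.5, 69.4 and 60.0 CPM in Pre, 56.6, 42.8 and 28.2 CPM in WL1 and 42.5, 40.4 and 39.3 CPM in WL2. Every later library of Nos3 was below every Pre library, and its log2 fold change was −0.82 ± 0.23 (SE; edgeR adjusted p = 0.0635) at WL1 and −0.88 ± 0.24 (adjusted p = 0.0418) at WL2. Flna, the actin crosslinker filamin A that ties caveolae to the cytoskeleton, had 678, 828 and 764 CPM in Pre, 835, 790.1 and 922 CPM in WL1 and 566, 546 and 598 CPM in WL2. Flna fell at WL2, with log2 fold changes of −0.41 ± 0.11 against Pre (edgeR adjusted p = 0.0488) and −0.57 ± 0.11 against WL1 (adjusted p = 0.0281). Its WL2 libraries were below all the others. The calls of Nos3 and Flna against Pre held in 10 and 6 of 19 alternatives, and leaving out 1 library gave adjusted p of up to 0.129 for Nos3 and 0.178 for Flna, both without WL2 2. The insulin receptor gene Insr, whose protein signals from caveolae in adipocytes, had a log2 fold change of 0.51 ± 0.15 at WL2 (adjusted p = 0.057), and Cd36, the fatty acid transporter, 0.24 ± 0.12 (adjusted p = 0.246).

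The 2 other genes of inherited generalized lipodystrophy beside Cav1 and Cavin1 both fell in both comparisons with Pre. Among all genes tested, 4.69% were called lower at WL1 and 6.66% at WL2. Agpat2, an enzyme of triglyceride synthesis, had 527, 338 and 344 CPM in Pre, 133, 189 and 155 CPM in WL1 and 151, 144 and 121 CPM in WL2. Its log2 fold change was −1.34 ± 0.20 (SE; edgeR adjusted p = 0.00399) at WL1 and −1.54 ± 0.20 (adjusted p = 0.000956) at WL2. Bscl2, which encodes the lipid droplet protein seipin, had 361, 333 and 334 CPM in Pre, 117, 153 and 131 CPM in WL1 and 164, 137 and 139.9 CPM in WL2. Its log2 fold change was −1.36 ± 0.13 (edgeR adjusted p = 0.00047) at WL1 and −1.22 ± 0.13 (adjusted p = 0.000273) at WL2. No Pre library of either gene overlapped a later one, and both genes were called in 19 of 19 alternatives of both comparisons.

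**Figure D4:**
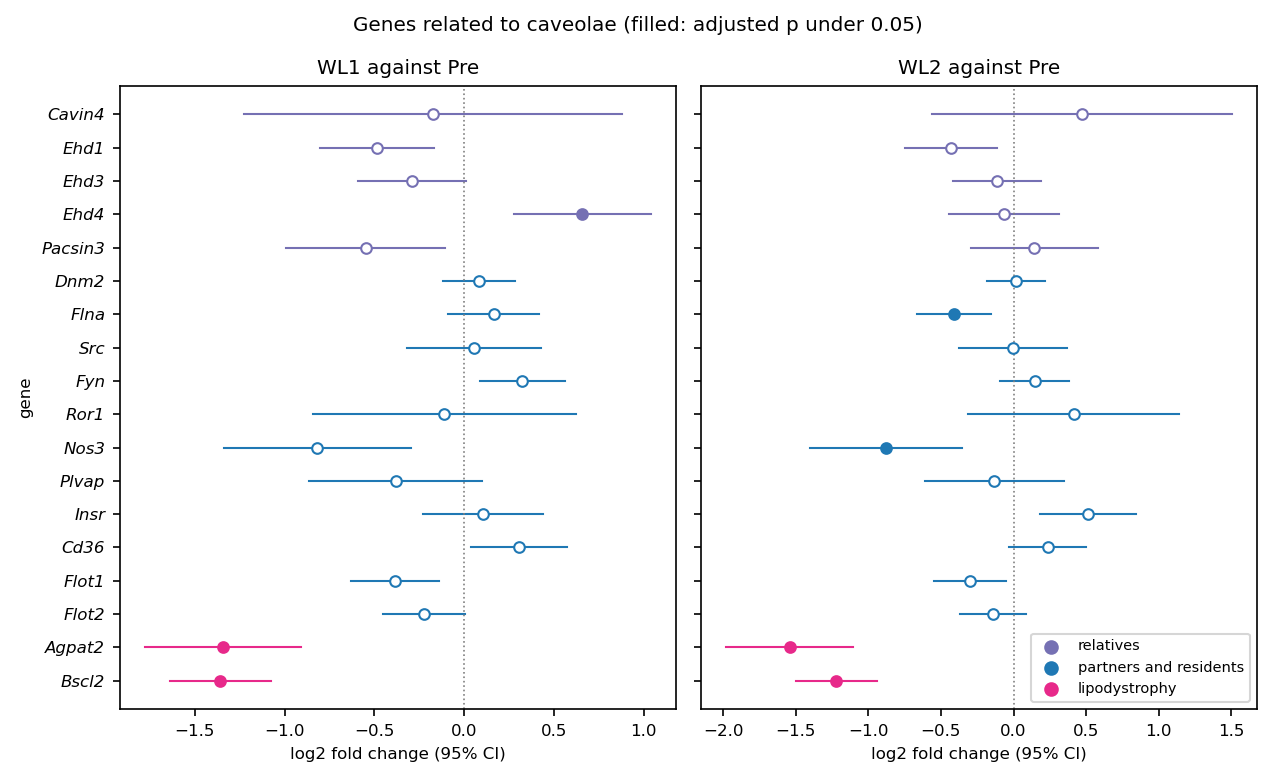
Log2 fold change, with its 95% CI, of relatives of the caveola genes, of partners and residents of caveolae, and of the 2 other lipodystrophy genes, at WL1 and WL2 against Pre. Filled points passed an adjusted p of 0.05, namely Ehd4, Agpat2 and Bscl2 at WL1 and Flna, Nos3, Agpat2 and Bscl2 at WL2. Cav3 and Pacsin1, which had few reads, are left out.

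Levels in the whole tissue also depend on which cells it holds, and marker lists are given beside the caveola genes. Of 10 adipocyte markers, 3 were lower at WL1 than at Pre (Plin1, Cidec and Retn) and none was higher. Among all genes tested, 4.69% were called lower and 2.6% higher. The call of Plin1 held in 6 of 19 alternatives. All 10 markers had a negative log2 fold change at WL1, 9 of them at an unadjusted edgeR p under 0.05. That p was reached by 24.3% of all genes tested, in either direction. The median log2 fold change of the markers was −0.51, beside −0.50 for the caveola genes. At WL2, 1 was lower (Cidec) and 1 higher (Adrb3) than at Pre, beside 6.66% and 3.35% of all genes tested. Of the 10 markers, 2 had an unadjusted edgeR p under 0.05 at WL2, beside 26% of all genes tested. The median of the markers was −0.067, beside −0.47 for the caveola genes. The call of Adrb3 held in 13 of 19 alternatives and in 3 of the 9 fits that left out a library (adjusted p up to 0.116). The summed adipocyte markers were 24944 to 32105 CPM at Pre, 17664 to 24116 CPM at WL1 and 26654 to 30769 CPM at WL2. The summed caveola genes were 10549, 10263 and 10014 CPM at Pre, 7720.2, 7863 and 6129 CPM at WL1 and 6872, 8140.3 and 8104 CPM at WL2. The WL2 libraries lay within the Pre range for the summed adipocyte markers and below it for the summed caveola genes. Fabp4 was the largest part of the adipocyte sum, with a mean of 11107.5 CPM at Pre and 13519 CPM at WL2. The place of the WL2 sums within the Pre range thus depends on Fabp4, and sums without it were not taken. Of the 10 markers, 6 had a negative log2 fold change at WL2 and 4 a positive one. Single markers differed from the sum. Every WL2 library was below every Pre library for Cidec and Retn and above for Adrb3, while the other markers overlapped Pre.

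Of 10 endothelial markers, 0 were called by edgeR against Pre in either phase, with 0 at an unadjusted p under 0.05 at WL1 and 2 at WL2, beside 24.3% and 26% of all genes tested. Their medians were −0.030 and 0.050 and their summed levels overlapped in all phases, at 1697 to 2482, 1426 to 2589 and 1992 to 2259 CPM. Of 8 smooth muscle and pericyte markers, 2 were lower in both comparisons (Acta2 and Cspg4) and 0 higher. Among all genes tested, 4.69% were called lower at WL1 and 6.66% at WL2. Of the 8 markers, 3 had a positive log2 fold change at WL1 and 1 at WL2. Their summed levels were 954 to 1171 CPM at Pre, 697 to 914 CPM at WL1 and 605 to 850.0 CPM at WL2. Acta2 alone was 350 to 374 CPM at Pre, 133 to 160 CPM at WL1 and 155 to 198 CPM at WL2. Only Acta2 and Cspg4 had every later library below every Pre library, and the other markers overlapped Pre. Of 10 macrophage markers none was called, with 5 at an unadjusted p under 0.05 at WL1 and 1 at WL2, where the shares of all genes were again 24.3% and 26%, and the sums were 1341 to 2349, 2513 to 4721 and 1523 to 2665 CPM. WL1 3 had the lowest summed caveola genes, adipocyte markers and endothelial markers of all libraries and the highest summed macrophage markers. Without WL1 3, the log2 fold change at WL1 was −1.31 for Cavin3 (edgeR adjusted p = 0.0032), −0.59 for Ehd2 (adjusted p = 0.0572) and −0.41 for Cav2 (adjusted p = 0.105).

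Among 8 fibroblast markers, only Dcn was called, higher at WL2, in 15 of 19 alternatives and in 5 of the 9 fits that left out a library (adjusted p up to 0.0866). Of all genes tested, 3.35% were called higher at WL2. Of the 8 markers, 5 had a negative log2 fold change at WL1 and 5 at WL2, with medians of −0.27 and −0.28. An unadjusted edgeR p under 0.05 was reached by 3 at WL1 and 5 at WL2, beside 24.3% and 26% of all genes tested. Every WL2 library was below every Pre library for Dpt and Lum and above for Dcn and Pdgfra. The fibroblast sums were 1612 to 2327, 1553 to 2311 and 1928 to 2491 CPM. Dcn was the largest part of each sum, with a mean of 701 CPM at Pre and 1250 CPM at WL2. None of 7 mesothelial markers was called, with 0 at an unadjusted p under 0.05 in either comparison with Pre. The shares of all genes tested were 24.3% and 26%. The mesothelial sums ran from 38.1 to 374, 44.9 to 227 and 239 to 678 CPM. Of 6 skeletal muscle markers 4 could be tested and Acta1 was lower at WL1, where 4.69% of all genes tested were called lower. The other 3 tested had a positive log2 fold change at WL1 and were not called. The skeletal muscle sums were 30.6 to 45.9, 7.16 to 13.6 and 8.49 to 23.9 CPM. Most of each sum was Acta1, with a mean of 38.7, 7.29 and 14.0 CPM in Pre, WL1 and WL2. The part of these cell types in the differences of the caveola genes was not tested.

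**Figure D5:**
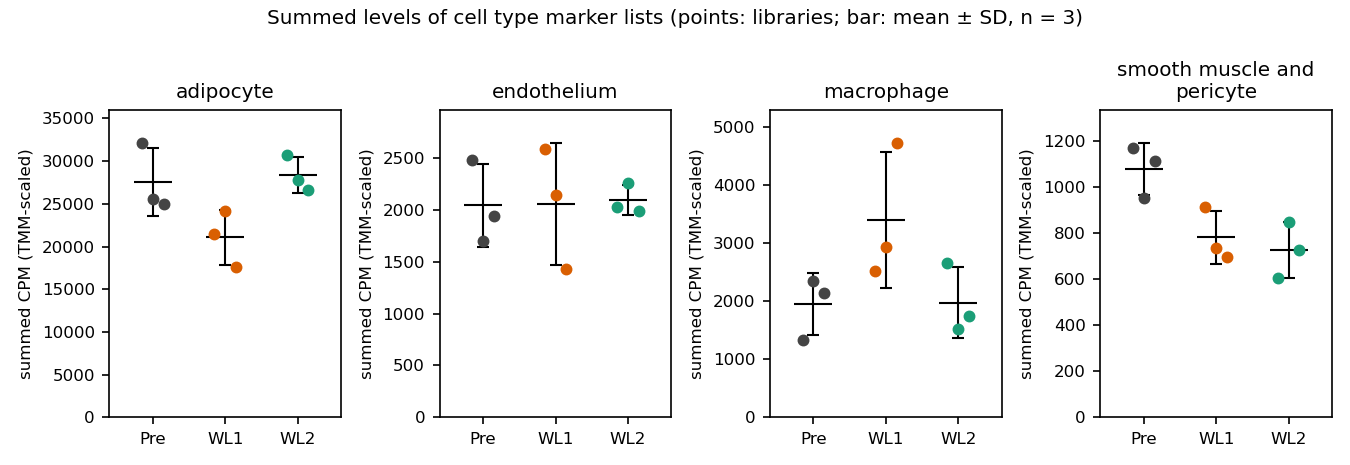
Summed level of 4 marker lists by phase, in TMM-scaled CPM, with points for libraries and bars for the mean ± SD (n = 3). The adipocyte sum is lower at WL1 and back in the Pre range at WL2, the endothelial sums overlap, and the macrophage sum reaches 4721 CPM in a WL1 library. The adipocyte sum at WL2 depends on its largest part, Fabp4, with a mean of 11107.5 CPM at Pre and 13519 CPM at WL2. The smooth muscle and pericyte sum is below the Pre range in every later library. Of the 8 markers in that sum, 3 had a positive log2 fold change at WL1 and 1 at WL2. Only Acta2 and Cspg4 separate from Pre in this way, and the other markers overlap Pre.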

How the data were processed

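Total RNA of epididymal adipose tissue was sequenced in 9 libraries, 3 for each of 3 phases. The authors deposited a table of raw read counts per gene and a table of FPKM values, both over 56748 genes. Their processing notes name CASAVA, HISAT, HISAT2, TopHat2, GRCm38 and mm10 without roles or versions. No source used here gives the program that counted reads, its strand setting or the library total behind the FPKM values. The gene coordinates in the table differed from GENCODE M21 for all 7 caveola genes, so those of GENCODE M21 are printed.

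Groups were taken from the treatment labels. A gene was kept when 1 or more libraries reached 0.5 CPM, the minimum of the study, which left 18510. Counts were scaled by TMM factors and fitted with edgeR 4.0.16 (glmQLFit, glmQLFTest) in R 4.3.3, with all 9 libraries in 1 model, and p-values were adjusted by Benjamini-Hochberg over all genes tested with a threshold of 0.05. SE is the log2 fold change divided by the square root of F. Ratios to Cav1 used the deposited gene lengths and an exact permutation test. The procedure was checked on simulated counts. Libraries held 16434450 to 22729072 counts, and no 2 libraries of a phase were alike within counting noise.

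Alternatives were other filters, RLE, upper quartile or no scaling factors, DESeq2 1.42.0, limma 3.58.1 on log2(FPKM + 1) and log2(FPKM + 0.1), the replicate number as a block, the compared phases alone, and each library left out in turn. They were extended to related genes after seeing the data. The 7 genes were named throughout, and of the lists of relatives, partners and lipodystrophy genes those past the threshold or not measurable were named. Insr, Cd36 and Pacsin1 values beyond this rule, and the promoters shown, were chosen after the values were seen. The genes most alike were the 5 with the highest correlation among protein-coding genes of at least 1 CPM on average. The members and lists were chosen with earlier results of these data known.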

Additional observations from a re-analysis of the deposited data

How the results depend on the processing

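Of the 7 caveola genes, 3 were called at WL1 and 3 at WL2 against Pre. DESeq2 called 5 at WL1, 5 at WL2 and 5 for any difference among the phases, in place of 3 each. Without scaling factors 2 were called at WL1 and 1 at WL2. Of all genes tested, 3.47% were then called lower and 5.42% higher at WL1, and 4.51% and 8.08% at WL2. The fit without factors moved the median log2 fold change of all genes from 0.021 to 0.12 at WL1 and from 0.0084 to 0.158 at WL2. With the replicate block 2 were called at WL1, 2 at WL2, 0 between WL2 and WL1 and 3 for any difference. Over all genes, libraries with the same number did not deviate together (r from −0.233 to 0.091), which cannot exclude a shared effect on some genes. Leaving out each library in turn gave 1 to 3 calls at WL1, 1 to 3 at WL2, 0 between WL2 and WL1, 2 to 3 for any difference and 0 to 1 ratios to Cav1. Cavin3 was called against Pre in 19 of 19 alternatives at WL1 and at WL2, Ehd2 in 17 and 13, Cav2 in 8 and 14, Cav1 and Cavin1 in 1 each, and Cavin2 and Pacsin2 in 0; the cause of the lost calls was not tested, beyond the smaller number of libraries in the leave-one-out fits. From WL1 to WL2, uncalled log2 fold changes turned sign for Cavin1 without a filter (−0.0041) and for Cav2 with upper quartile factors (0.011) and without factors (0.0014). With a library left out they did so for Cav2 (values from −0.133 to 0.028), Cav1 (−0.054 to 0.194) and Cavin1 (−0.066 to 0.055). Over all genes, DESeq2 called 2292 at WL1 against 1350, 1838 between WL2 and WL1 against 681, and 4060 for any difference against 2417. The replicate block gave 844, 330 and 1560 in these 3 tests, no filter gave 1668 between WL2 and WL1, and the compared phases alone gave 1053 there. Leaving out a library gave 512 to 1500 calls at WL1, 743 to 1688 at WL2, 37 to 1351 between WL2 and WL1 and 1062 to 2475 for any difference. The share of higher genes among those called went from 35.7% to 61% at WL1 and from 33.5% to 64.2% at WL2 without factors, and from 35.5% to 48.3% between WL2 and WL1 with upper quartile factors. With 3 libraries a phase, the 95% intervals of Cav1, Cav2 and Cavin1 at WL1 were wider than their changes.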
